A study of Mus musculus with 4 samples.

Results

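Follicular helper-like T cells were described among CD45+ leukocytes sorted from whole colon of C57BL/6 mice of WT genotype. The control group and the group held in restraint daily for 7 days each gave 2 droplet single-cell libraries, named here control 1, control 2, stress 1 and stress 2. All groups share strain, genotype, tissue and sort, and the sources used here give neither the age of the mice nor whether a library holds cells of 1 animal or of several. Replicates are therefore libraries, and the spread between them may be technical in part. Every series of 4 values below follows the order control 1, control 2, stress 1, stress 2.

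Members were selected on their own transcripts. A kept barcode has at least 500 UMIs (unique molecular identifiers, the counted molecules), at least 200 genes and at most 10% mitochondrial UMIs. It is called a gated T cell here if it has at least 2 UMIs of the CD3 chains Cd3e, Cd3d and Cd3g, at most 1 of the B cell receptor chains Cd79a and Cd79b, and none of Cd8a, Cd8b1, Trdc and Foxp3. A member also has at least 2 UMIs summed over Izumo1r, Pdcd1 and Cxcr5. This gave 349 members among 20428 kept barcodes, with 29, 85, 160 and 75 members per library among 2510 gated T cells. The 1852 gated T cells without a UMI of these receptors serve as the comparison and are called other gated T cells, and the 309 with 1 receptor UMI enter neither group.

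Follicular helper T cells are CD4 T cells that enter B cell follicles and give germinal centre B cells the signals for survival, class switching and affinity maturation. In the gut they shape the IgA response to the microbiota. Their programme is set by the repressor Bcl6, which opposes Prdm1 (Blimp-1), and they follow CXCL13 through the receptor Cxcr5. Pdcd1 (PD-1) restrains their signalling, and Izumo1r (folate receptor 4) is found on follicular helper cells but also on regulatory and anergic CD4 T cells.

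Kept barcodes numbered 2546, 5436, 8319 and 4127, and the UMIs summed over members came to 123810, 411098, 446604 and 428281. Members of control 1 thus carry the least depth. No barcode of a member occurred in a second library, and kept barcodes shared by a pair of libraries numbered 3 to 12. The median member had 3237, 3722, 2328 and 4566 UMIs, and the median other gated T cell 2883, 3137, 2112 and 4514. Shares and levels below therefore come from cells whose depth differs more between libraries than between members and other gated T cells.

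Izumo1r chose most members. It had a UMI in 321 of the 349 members, Pdcd1 in 95 and Cxcr5 in 74. Izumo1r was the only receptor detected in 204 members, or 58.5%, while 48 had Izumo1r with Cxcr5, 55 had Izumo1r with Pdcd1 and 14 had UMIs of all of them. The remaining 16 had Pdcd1 alone, 10 Pdcd1 with Cxcr5 and 2 Cxcr5 alone. Izumo1r stood at 501, 555, 1010 and 577 CPM (UMIs of the gene per 1000000 UMIs) summed over members, Pdcd1 at 153, 82.7, 157 and 161, and Cxcr5 at 56.5, 24.3, 98.5 and 91.1. As gate genes these levels are a description only. A Cxcr5 UMI was found in 17.2%, 9.41%, 23.1% and 32.0% of members. After each cell was thinned to 1000 UMIs it was found in 0%, 3.53%, 11.5% and 6.67%. The 0% of control 1 rests on 29 cells, and 3 counts of that number allow a share of cells with a Cxcr5 UMI at this depth of up to 10.3%.

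The gate's name was checked on Bcl6 and Tox2, which the gate did not read. Without thinning, the level of both was higher in members than in other gated T cells in every library. Bcl6 (chr16:23965052-23988852, minus strand, GRCm38) stood at 56.5, 53.5, 78.4 and 95.7 CPM in members and at 29.5, 19.3, 27.4 and 12.2 CPM in the others. Tox2, an HMG-box factor that acts with Bcl6 (chr2:163203125-163324170, plus strand), stood at 40.4, 70.5, 114 and 159 CPM in members and at 16.2, 2.90, 36.0 and 30.0 CPM in the others. After thinning, a Bcl6 UMI was found in 3.45%, 7.06%, 8.28% and 8% of members and 3.47%, 1.75%, 2.91% and 0.413% of the others. Bcl6 was thus not found more often in members of control 1, where the share is 1 of 29 cells. Tox2 was then found in 6.90%, 7.06%, 14.0% and 17.3% against 0.990%, 0.159%, 2.33% and 4.96%, higher in members in every library. The level of Il21, the main helper cytokine, was 72.7, 7.30, 35.8 and 79.4 CPM against 2.95, 0.483, 9.14 and 8.91 CPM. Il21 had only 62 UMIs, in 33 members, and was below the filter of this comparison. No Il21 UMI was found in the 165 T cells with Foxp3 UMIs. Their shares after thinning were 0% (of 22 cells), 6.38%, 3.33% and 2.94% for Bcl6. For Tox2 they were 4.55%, 0% (of 47 cells), 5% and 5.88%. These lay below the shares of members in every library, narrowly so for Bcl6 in control 2, and carry no test. B cells, which lack Il21, had 1 Il21 UMI among 11202 cells.

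The remaining fit of the name is partial. A Cd4 UMI was present in 44.8%, 56.5%, 43.8% and 65.3% of members and in 18.1%, 34.1%, 30.4% and 45.6% of other gated T cells, so CD4 identity was not shown for each cell. Cd40lg, the ligand through which helper cells license B cells, stood at 56.5, 36.5, 40.3 and 84.1 CPM in members and 93.0, 68.1, 64.6 and 81.9 CPM in the others. Ascl2, a factor that promotes Cxcr5, had 1, 0, 2 and 3 UMIs in members, and Tigit 1, 2, 0 and 3. S1pr2, which holds cells in the germinal centre, had 3, 2, 5 and 5 UMIs. The label follicular helper-like is kept with these limits.

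Levels on either side of the threshold were set out by receptor UMIs, as a description. Over cells with 0, 1, 2, 3 and 4 or more receptor UMIs (1852, 309, 159, 62 and 128 cells), Bcl6 stood at 21.5, 25.3, 62.7, 44.7 and 101 CPM. Sh2d1a, which encodes the adaptor SAP, stood at 93.3, 199, 302, 443 and 498 CPM, and Il21 at 5.23, 25.3, 30.6, 61.0 and 51.7 CPM. Klf2 ran the other way, at 560, 453, 397, 252 and 197 CPM. Cells just below the threshold, with 1 receptor UMI, thus lay between the other gated T cells and members for these genes. Not every gene set out in this way followed the programme. Lef1, of the list of its transcription factors, fell, at 335, 287, 150, 158 and 159 CPM. Ccr7 stood at 336, 443, 364, 321 and 526 CPM and Cd40lg at 72.9, 66.1, 24.1, 73.1 and 79.3 CPM, without a steady order. Cells with more receptor UMIs also had more UMIs in all, and these values carry no test.

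**Figure D1:**
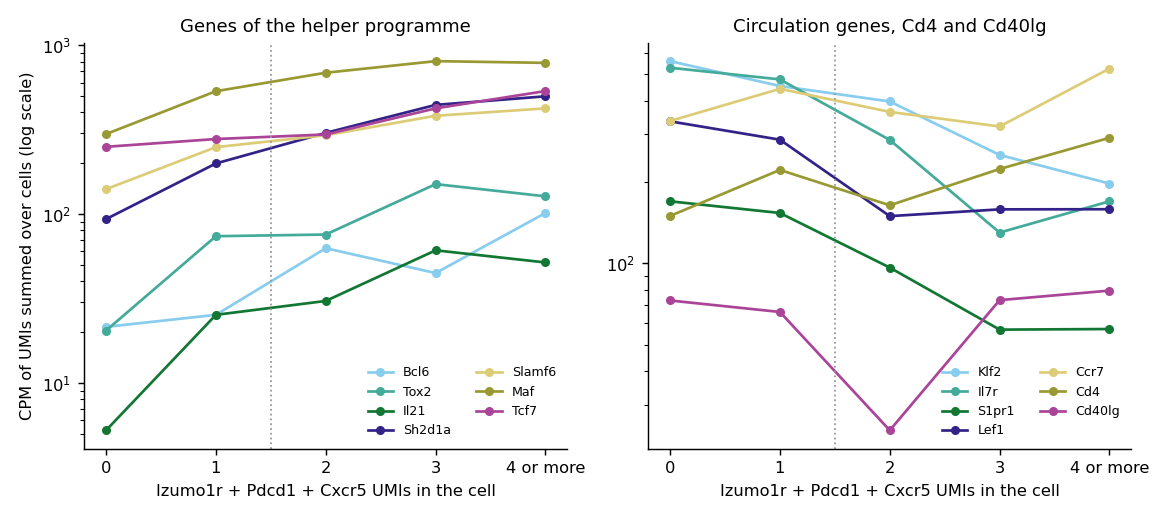
Level in CPM of summed UMIs (log axis) over gated T cells grouped by the number of Izumo1r, Pdcd1 and Cxcr5 UMIs; the dotted line marks the gate. Sh2d1a goes from 93.3 to 498 CPM and Klf2 from 560 to 197 CPM across the groups.

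Members and other gated T cells were next compared gene by gene outside the gate, with library as a block. Of 5775 genes tested, 249 (4.31%) passed an adjusted p of 0.05 with a higher level in members and 365 (6.32%) with a lower level, by edgeR's quasi-likelihood test with Benjamini-Hochberg adjustment. The median log2 change over all genes tested was -0.010. Because the gate chose members by 3 receptors of this programme, the counts below describe the gate's choice. Other gated T cells are mixed: NK receptors such as Klra7 and Klrd1 are among their genes, as described below.

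The transcription factors of the follicular helper programme were mostly higher in members. Of 12 tested from a list of 14, 8 passed as higher and 1 as lower, with a median log2 change of 0.71. Those higher were Tox2 (log2 change 2.18 ± 0.40, SE), Pou2af1 (2.28 ± 0.43), Tox (1.66 ± 0.16), Bcl6 (1.61 ± 0.27), Maf (1.17 ± 0.14), Nfatc1 (0.88 ± 0.17), Tcf7 (0.54 ± 0.13) and Batf (0.53 ± 0.16), with adjusted p from 1.4e-06 for Tox to 0.034 for Batf. Irf4 was lower (-0.85 ± 0.24, adjusted p = 0.029), and Stat3, Lef1 and Id3 did not pass. Without stress 2, 5 of the 12 passed as higher. At a mitochondrial limit of 5% only 1 of 9 did, and among cells with a Cd4 UMI 4 of 9.

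Tox and Maf, a factor needed for Il21 and Il4, illustrate the spread. Tox stood at 162, 187, 240 and 203 CPM in members and at 59.0, 65.2, 56.0 and 47.0 CPM in the others, without overlap between the cell groups. Maf stood at 590, 316, 844 and 1100 CPM in members and at 198, 82.6, 429 and 528 CPM in the others, where the levels of other gated T cells under stress exceed that of control 2 members. Within each library, members were higher for both genes.

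Factors that oppose the programme went the other way or did not pass. Of 8 tested, 3 were lower: Klf2, which promotes egress (-1.07 ± 0.13, adjusted p = 1.8e-05), Id2 (-0.79 ± 0.14) and Runx3 (-0.73 ± 0.14). None was higher. Klf2 stood at 372, 338, 343 and 182 CPM in members and at 540, 556, 623 and 489 CPM in the others. Prdm1, Gata3, Foxo1, Stat5a and Stat5b did not pass, with Prdm1 at -0.63 ± 0.28. Among cells with a Cd4 UMI, Klf2 no longer passed (-0.60, adjusted p = 0.77).

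Genes of B cell help were divided. Sh2d1a (chrX:42502453-42529330, plus strand), Tnfsf8 (CD30 ligand), Slamf6 and Icos were higher and Cd40lg lower, with 5 of the 10 tested not passing. Cd40lg passed narrowly (-0.65 ± 0.21, adjusted p = 0.049) and did not pass with DESeq2 (adjusted p = 0.25) or without control 1, control 2 or stress 1 (0.12, 0.26 and 0.24). Sh2d1a stood at 501, 277, 439 and 455 CPM against 79.7, 62.8, 138 and 88.3 CPM, a log2 change of 1.98 ± 0.15 (adjusted p = 1.3e-07). Slamf6, which signals through SAP, stood at 234, 348, 425 and 334 CPM against 85.6, 141, 166 and 133 CPM (1.18 ± 0.12, adjusted p = 2.3e-06). Tnfsf8 rose to 396, 148, 596 and 525 CPM from 120, 54.1, 227 and 210 CPM (1.28 ± 0.12, adjusted p = 1.1e-06). Icos was higher by 0.50 ± 0.10 (adjusted p = 0.0026) but did not pass among cells with a Cd4 UMI (-0.07, adjusted p = 0.88). Cd28, Cd84, Ly9, Slamf1 and Fasl did not pass.

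Inhibitory and costimulatory receptors were higher for 5 of 9 tested: Btla (1.64 ± 0.31), Lag3 (1.39 ± 0.29), Tnfrsf4 (OX40, 1.03 ± 0.22), Nt5e (CD73, 0.73 ± 0.17) and Cd5 (0.63 ± 0.16). Cd160 was lower (-2.32 ± 0.35, adjusted p = 0.0012), and Ctla4, Havcr2 and Tnfrsf18 did not pass. With control 1, control 2 or stress 1 left out, 3 of the tested receptors passed as higher. With a Cd4 UMI required, 0 of 6 passed in either direction by edgeR's quasi-likelihood test.

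Several genes of T cell trafficking were lower in members. These included S1pr1, the egress receptor (-1.23 ± 0.16), Selplg (-1.15 ± 0.13) and Itgb7, a chain of the gut-homing integrin (-1.09 ± 0.13). Cxcr4 was higher (0.89 ± 0.14, adjusted p = 0.00023), and Ccr7, Gpr183, Itga4 and P2rx7 did not pass. Itgb7 stood at 137, 148, 163 and 191 CPM in members and 270, 251, 337 and 368 CPM in the others. Its cell groups did not overlap, and Itgb7 and S1pr1 were lower in members within every library.

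Among cytokine receptors, 4 of 8 were lower and 1 higher. Il7r was lower (-1.45 ± 0.15, adjusted p = 7.3e-06) at 242, 345, 163 and 133 CPM against 450, 621, 533 and 417 CPM, with every member value below every other value. Ifngr1 (-1.26 ± 0.11), Il21r (-0.73 ± 0.14) and Tgfbr2 (-0.71 ± 0.15) were lower too, and Il6st, the shared signalling chain of IL-6, was higher (1.01 ± 0.19, adjusted p = 0.0014). The median log2 change of the list was -0.47. Il6ra, Il2ra and Il2rb did not pass.

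Other lists were compared in the same way, against the 4.31% of all genes higher and 6.32% lower. Of 10 genes of T cell receptor signalling, 0 were higher and 3 lower, namely the activation marker Cd69 (-0.87 ± 0.13), Nr4a1 (-0.86 ± 0.15) and Tnfaip3 (-0.58 ± 0.12), by edgeR's quasi-likelihood test. Of 12 glucocorticoid response genes, Cxcr4 and Ddit4 (0.97 ± 0.18) were higher, and Il7r, Tsc22d3 (-0.83 ± 0.13) and Zfp36l2 (-0.44 ± 0.11) lower. Of 20 interferon response genes, Ifi27l2a was higher (1.16 ± 0.17) and Bst2, Gbp4 and Irf1 lower. Medians of the lists were -0.30, -0.04 and -0.14 on the log2 scale, and 3 of 13 cell cycle genes were higher with a median of 0.45.

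**Figure D2:**
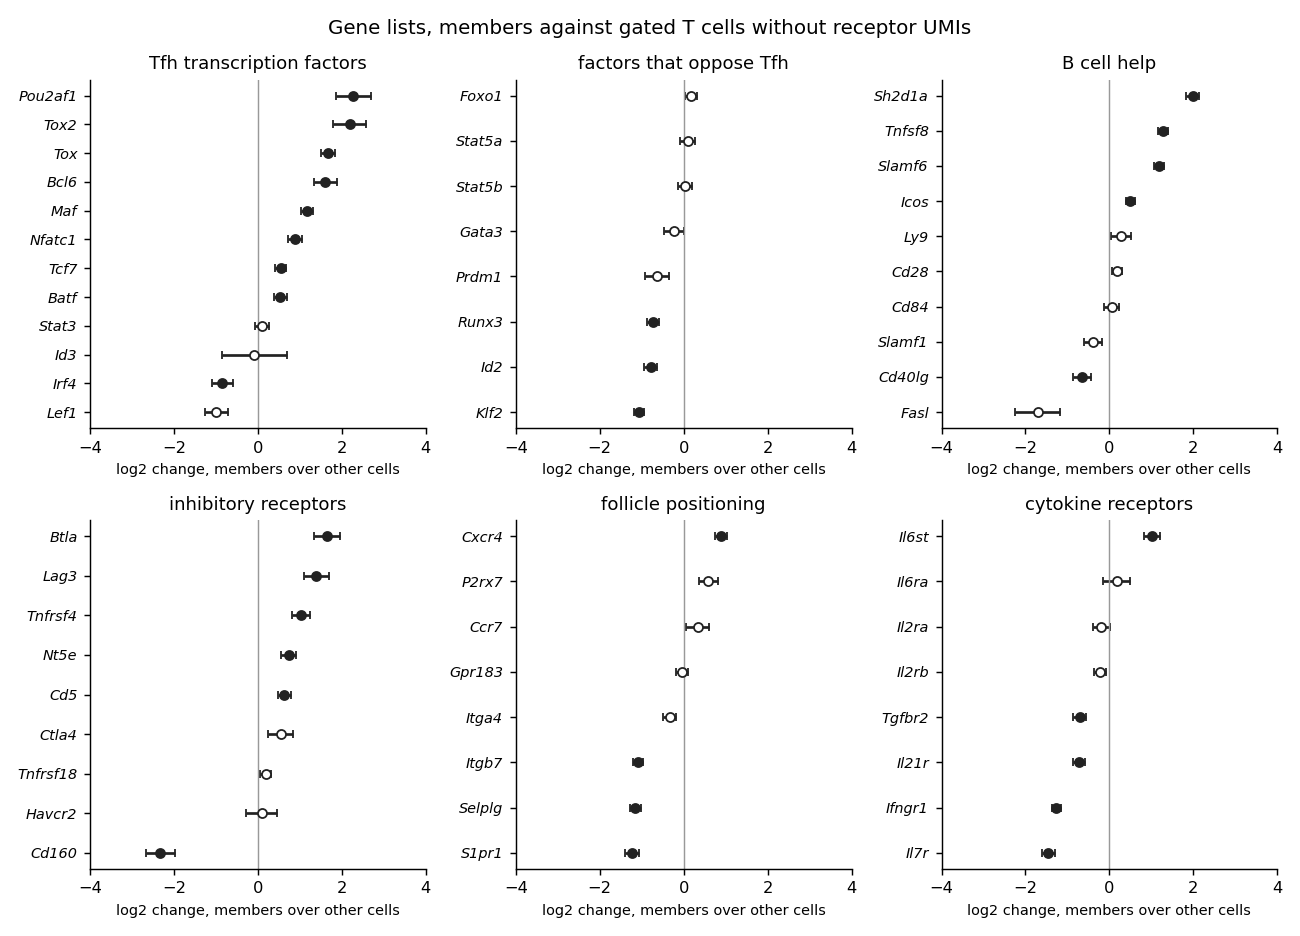
log2 change of the genes of 6 lists, members over other gated T cells, with the standard error; filled points passed an adjusted p of 0.05. Tox2, Pou2af1, Tox and Bcl6 lie above 1.6, and S1pr1, Selplg and Itgb7 below -1.0.

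Ranked by p, 12 genes were named in each direction. Tbc1d4, a regulator of glucose transporter traffic (chr14:101442360-101609191, minus strand), stood at 339, 287, 358 and 388 CPM in members against 38.4, 38.1, 58.3 and 37.3 CPM, a log2 change of 2.80 ± 0.15 (adjusted p = 1.1e-09). Cd83 followed at 420, 216, 177 and 215 CPM against 90.0, 32.8, 37.7 and 26.7 CPM (2.36 ± 0.17). Eea1, Hif1a, Fam43a, Smco4, Igf1r, Tox, Slamf6, Tnfsf8 and Sh2d1a were also among them, with log2 changes from 1.18 for Slamf6 to 3.90 for Fam43a. All these genes were higher in members in 4 of 4 libraries.

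H2-Ab1, the twelfth of them, is an MHC class II gene that mouse T cells do not normally express. It stood at 2657, 1019, 656 and 1193 CPM in members against 642, 265, 208 and 542 CPM (log2 change 1.52 ± 0.13), from 47 of the 349 members. Lyz2, a myeloid gene, had 1344 UMIs in 36 members. The 9 myeloid marker genes summed to 3505, 1250, 983 and 1240 CPM in members and to 385, 356, 355 and 1092 CPM in the others. At least 5 myeloid UMIs were found in 4, 4, 4 and 6 members. When barcodes with any myeloid UMI were left out, H2-Ab1 stood at a log2 change of -0.16 (adjusted p = 0.92).

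Among the 12 genes named as lower, Nkg7, a cytotoxic granule gene, stood at 113, 21.9, 73.9 and 114 CPM against 354, 172, 547 and 544 CPM (log2 change -2.63 ± 0.18, adjusted p = 7.5e-08), and Ifng at 72.7, 4.87, 116 and 189 CPM against 207, 49.3, 389 and 507 CPM (-1.82 ± 0.17). Klra7, an NK receptor, had 4 UMIs over all members and stood at 152, 70.5, 96.6 and 115 CPM in the others. Klre1 had 1 UMI in members and 225 in the others, a ratio of 55.3 per UMI (exact 95% interval 9.83 to 2195). Klrd1, Klrk1, Rgs1, Txk, Itga1, Smad7, Ifngr1 and Bcl2 completed the list, and each was lower in 4 of 4 libraries. Of the 5 tested genes of the NK and ILC marker list, 0 passed in either direction by edgeR. Of the gamma-delta chain genes that the gate did not read, Tcrg-C2 and Tcrg-C4 were lower too (-2.36 ± 0.37 and -2.93 ± 0.57).

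Il17a, Il17f and Il22, cytokines of the Th17 and innate-like lineages, did not pass in this comparison, at log2 changes of -2.88 ± 0.72, -1.47 ± 0.42 and -3.45 ± 0.88. Ccl5 (-3.03 ± 0.53, adjusted p = 0.070) and Cxcr6 (-1.58 ± 0.38, adjusted p = 0.059) did not pass either. Of the 10 effector genes tested, all had a negative log2 change, with a median of -1.70. Without control 1, 8 of 12 tested passed as lower. With a Cd4 UMI required, 4 of 10 did, Cxcr6 among them (-2.21, adjusted p = 0.0002).

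**Figure D3:**
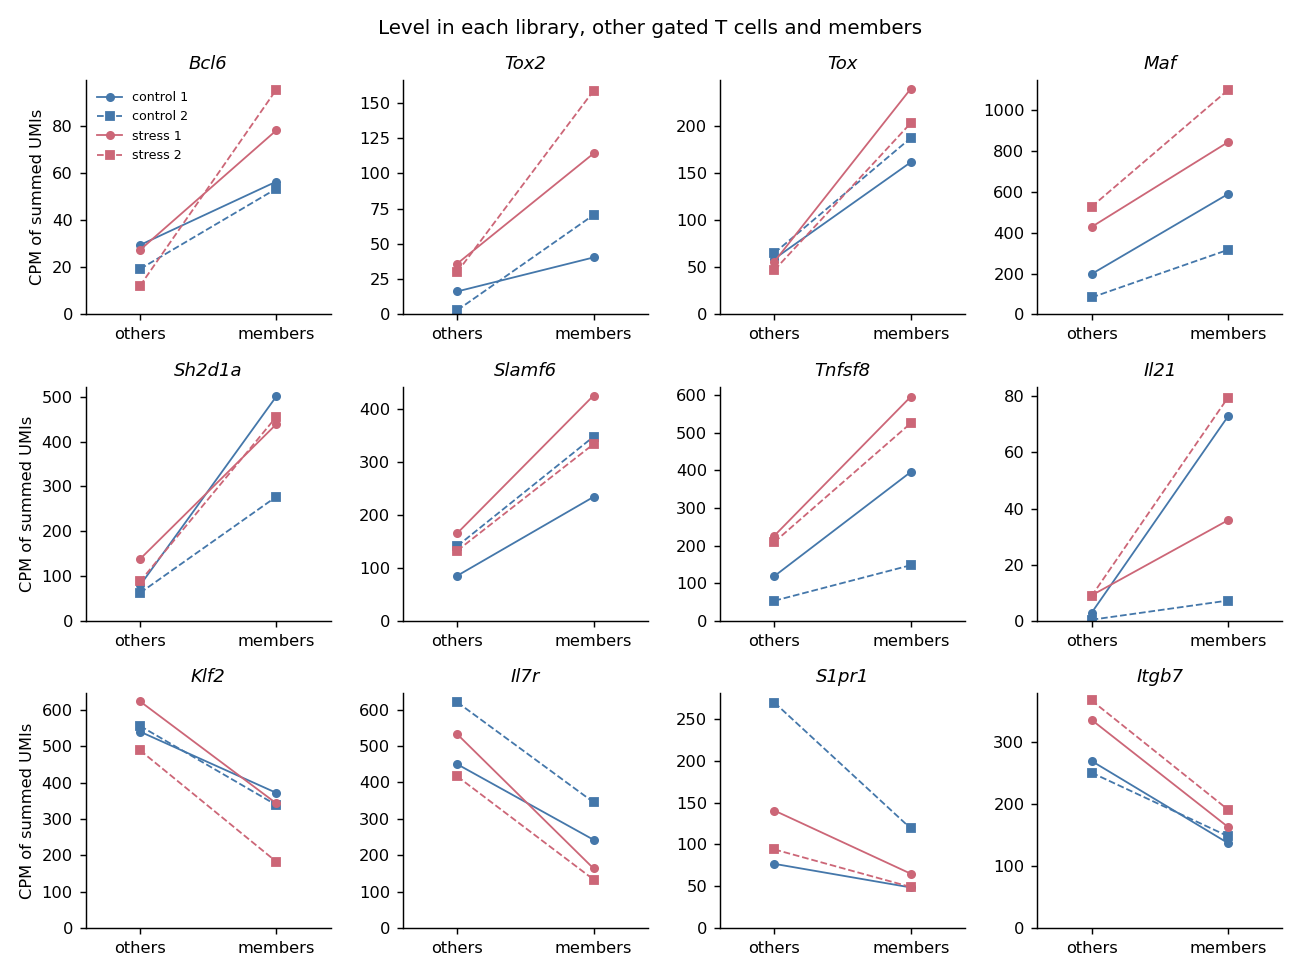
Level of 12 genes in other gated T cells and in members in each library, in CPM of the summed UMIs. Lines join the 2 values of a library; Bcl6, Tox2, Tox, Maf, Sh2d1a, Slamf6, Tnfsf8 and Il21 are higher in members in all 4 libraries and Klf2, Il7r, S1pr1 and Itgb7 lower in all 4.

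Regulatory T cells without a detected Foxp3 UMI could enter this gate, because Izumo1r marks them too. T cells with a Foxp3 UMI numbered 22, 49, 60 and 34. Members stood below them for Ctla4 (1413, 450, 1200 and 969 CPM against 2442, 1538, 2723 and 2824 CPM) and for Ikzf2, at 347, 406, 549 and 462 CPM against 768, 944, 741 and 927 CPM. Il10 was higher in members than in other gated T cells (log2 change 1.05 ± 0.20, adjusted p = 0.0013), at 170, 2.43, 199 and 105 CPM, and below the 744, 240, 718 and 825 CPM of Foxp3 cells. Tcf7 lay the other way, at 339, 358, 461 and 427 CPM in members and at 11.6, 81.8, 64.7 and 0 CPM in Foxp3 cells. After thinning, Maf was found in 48.3%, 21.2%, 54.1% and 52.0% of members and in 40.9%, 19.1%, 60.0% and 70.6% of Foxp3 cells. Icos was then found in 65.5%, 32.9%, 59.9% and 46.7% against 63.6%, 44.7%, 65.0% and 61.8%. Neither gene was found more often in members in every library. Sh2d1a was, at 34.5%, 21.2%, 36.9% and 37.3% against 0% (of 22 cells), 14.9%, 10.0% and 14.7%. These levels and shares of the Foxp3 cells are given without a test. The part of regulatory cells in the Il10, Maf and Icos levels was not tested.

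Members with a Cxcr5 UMI were compared with members without one, 74 against 275 cells. No gene passed of 2030 tested (0%), by edgeR's quasi-likelihood test and by DESeq2, and 116 had an unadjusted p under 0.05 by edgeR and 69 by DESeq2. The sums of Cxcr5-positive members come from 5, 8, 37 and 24 cells. Among genes of the programme, Tox2 (log2 change 1.05 ± 0.34), Slamf6 (1.24 ± 0.38), Tcf7 (0.80 ± 0.25), Bcl6 (0.84 ± 0.41) and Sh2d1a (0.79 ± 0.25) had positive changes, with adjusted p of 0.40 or more. The smallest p values belonged to Got1 (-2.06 ± 0.42), Capg (-1.65 ± 0.37), Ifngr1, Ptpn11 (1.26 ± 0.29) and Id2 (-1.28 ± 0.30), with adjusted p of 0.21 in each case. Tnfsf11, Akirin1, Trim8, Trib1 and Vps37b were the others named by the rule, and none of them passed. Il21 had 7, 0, 7 and 8 UMIs in the 74 Cxcr5-positive members. In the 204 members with Izumo1r alone it had 29 UMIs over all libraries. These totals come from groups of unlike size and are not levels per cell.

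Stress was compared with control first by the share of members. Members made up 10.5%, 10.2%, 15.6% and 19.8% of gated T cells (exact Clopper-Pearson 95% intervals 7.18 to 14.8, 8.23 to 12.5, 13.5 to 18.0 and 15.9 to 24.2), so both stress libraries were above both controls. The mean was 10.4% ± 0.24 (SD, n = 2) in control and 17.7% ± 2.93 (SD, n = 2) in stress, a difference of 7.34 percentage points. A two-sided exact permutation test gave p = 0.333, the smallest that 2 against 2 libraries can give. Intervals cover counting error only. Of all kept barcodes, members made up 1.14%, 1.56%, 1.92% and 1.82%.

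The difference in share depended on which cells were counted. With at least 1 Cd4 UMI the shares were 21.3%, 15.4%, 20.6% and 24.6%, and the groups overlapped. With a Cd4 UMI and no myeloid UMI they were 18.9%, 14.3%, 21.1% and 23.4%, without overlap. At 3 or more receptor UMIs they were 4.36%, 4.56%, 8.80% and 13.2%, again without overlap. The members' median mitochondrial share was 4.57%, 5.58%, 6.55% and 6.48%, higher in both stress libraries. Under a mitochondrial limit of 5% the shares were 10.4%, 8.81%, 12.05% and 11.6% of gated T cells, and the share of all kept barcodes was lower under stress by 0.281 points. After thinning of every cell to 1000 UMIs the shares were 4.19%, 1.73%, 6.75% and 5.28%. The part of RNA quality and of depth in the share was not tested.

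**Figure D4:**
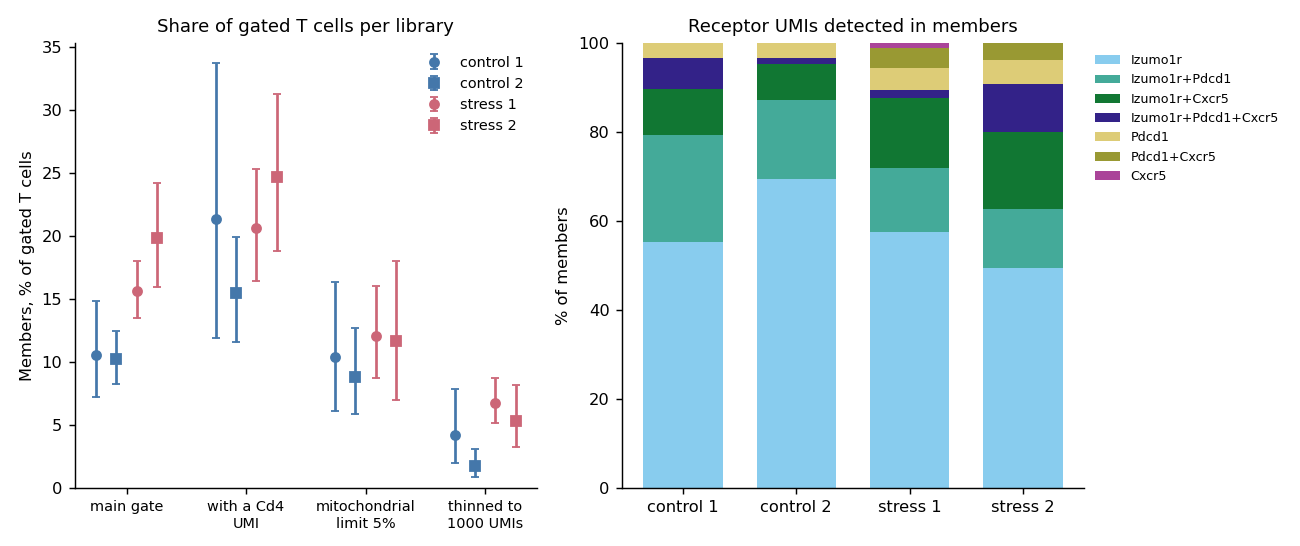
Left, members as a share of gated T cells in each library under 4 definitions, with exact 95% binomial intervals. Right, the receptors with a UMI in members. Both stress libraries (15.6% and 19.8%) lie above both controls (10.5% and 10.2%) under the main gate but not when a Cd4 UMI is required.

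Gene by gene, the levels in members differed little beyond the spread between libraries. Of 5488 genes tested, 1 (0.0182%) passed as higher under stress and 0 as lower by edgeR's quasi-likelihood test, while 283 had an unadjusted p under 0.05. DESeq2 called 4. The median log2 change over all genes was -0.014. The gene that passed was Ccl20, a chemokine of Th17 cells that draws CCR6-positive cells (chr1:83116766-83119167, plus strand). It had 0, 0, 37 and 40 UMIs, from 3 and 4 members in the stress libraries, 31 of the 77 UMIs being from 1 cell. Taking UMIs as independent, a limit of 3 counts over the control members puts the Ccl20 level at least 15.7-fold higher under stress. Without control 2 this is at least 3.63-fold. The UMIs come from few cells, so these bounds cover counting error of independent UMIs only. They do not cover the spread between cells or libraries. In other gated T cells Ccl20 stood at 36.9, 8.69, 128 and 652 CPM.

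Il17a showed the same pattern without passing in this comparison. It had 0, 0, 65 and 178 UMIs, from 5 and 7 members of the stress libraries (adjusted p = 0.77 by edgeR). Taking UMIs as independent, this is at least 49.5-fold higher against the 3-count limit. Il17f had 0, 0, 23 and 99 UMIs and was at least 24.9-fold higher on the same basis. With 1 library left out these bounds ran from 11.5-fold (without control 2) to 74.1-fold (without stress 1) for Il17a and from 5.75-fold to 41.2-fold for Il17f. The bounds cover counting error of independent UMIs only. The Il17a UMIs come from 12 cells, and the spread between cells or libraries is not covered. With DESeq2 Il17a passed (adjusted p = 0.021). Control members are few: 114 cells, with 534908 UMIs in all.

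No gene of the follicular helper lists passed. Of 13 transcription factors tested, 8 stood higher in both stress libraries than in both controls and 1 lower, where 17.2% of all genes were higher and 16.9% lower in the same way. Tox2 (log2 change 1.07 ± 0.36), Maf (1.09 ± 0.31), Id3 (1.87 ± 0.56), Batf, Irf4, Bcl6, Tcf7 and Tox were the 8, and Nfatc1 was the 1. Their adjusted p was 0.63 for Maf and higher for the rest, by edgeR. Median log2 change over the list was 0.44. The stress change in members minus that in other gated T cells was negative for Maf (-0.71 ± 0.21) and Tox2 (-1.22 ± 0.72). Neither passed edgeR's interaction test (adjusted p = 0.28 and 0.88). Of the 13 factors in that test, 6 had a positive difference and 7 a negative one, and only Id3 passed, as higher. Of 10 genes of B cell help, 2 were higher in both stress libraries and 1 lower, and of 10 inhibitory receptors 2 and 1. Tnfsf8 (1.10 ± 0.38) and Lag3 (1.57 ± 0.45) had the lowest p of each list, and neither passed (adjusted p = 0.81 and 0.74).

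No gene of the other programmes passed either. In the interferon response list, 17 of 20 tested had a positive log2 change, with a median of 0.51. Of the 20, 10 stood higher in both stress libraries than in both controls, where 17.2% of all genes did. The 24 genes of the list summed to 3828, 2289, 3748 and 3759 CPM in members, so both stress sums lay below that of control 1. Iigp1, an interferon-induced GTPase, had a log2 change of 2.12 ± 0.64 (adjusted p = 0.74). In the glucocorticoid list, 10 of 12 had a negative change, with a median of -0.27; Il7r stood at 242, 345, 163 and 133 CPM (-1.11 ± 0.28, adjusted p = 0.50) and Tsc22d3 had a change of -0.57 ± 0.27. None of these genes passed. Immunoglobulin transcripts stood higher in members of both stress libraries without passing: Igkc stood at 339, 358, 1104 and 3253 CPM, and Igha at 234, 139, 533 and 1438 CPM. A B cell marker UMI was carried by 2, 7, 8 and 8 members, and the part of B lineage transcripts in the result was not tested.

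Ranked by p, the genes lower under stress began with Glul (-2.17 ± 0.42), Cd81 (-1.91 ± 0.37), Rgcc (-1.55 ± 0.32), Klf4 (-1.48 ± 0.32) and Cul4b (-2.27 ± 0.50), none of which passed (adjusted p from 0.35 to 0.41). Klf4 stood at 299, 229, 123 and 70.0 CPM and Cd81, a tetraspanin, at 162, 102, 38.1 and 30.4 CPM. Both stress libraries lay below both controls for all 5 genes, as they did for 16.9% of all genes tested. The 5 were picked by p among genes lower under stress, so this is no separate support. Leaving out control 1 gave 155 genes that passed, leaving out control 2 gave 108, and without stress 1 or stress 2 there were 19 and 7. Each of these fits has 1 library in a group and takes its spread from the other group, so the counts do not measure stability.

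**Figure D5:**
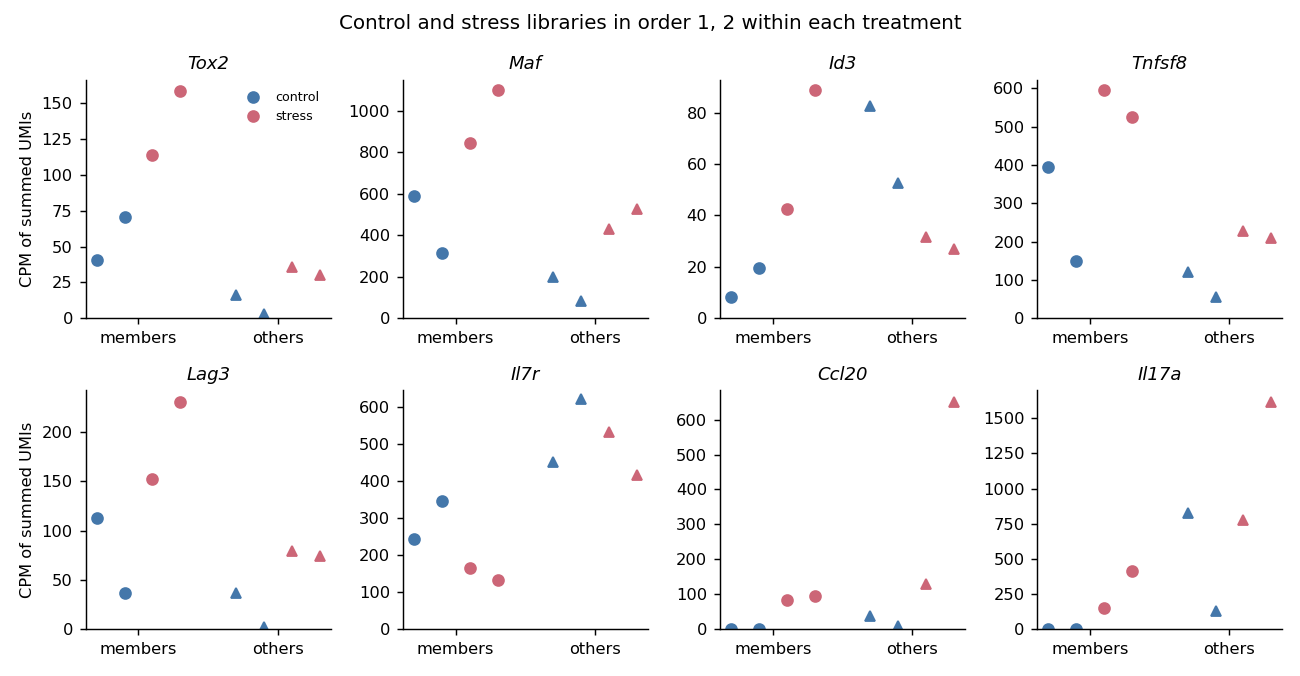
Level of 8 genes in members (circles) and other gated T cells (triangles), in CPM of summed UMIs, with control libraries in blue and stress libraries in red. In members, Ccl20 and Il17a are at 0 in both controls, and Il7r is lower in both stress libraries than in both controls.

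Whether the stress change in members differed from that in other gated T cells was tested directly. Of 6655 genes, 17 (0.255%) passed, 2 with a more positive log2 change in members than in the others and 15 with a more negative one, by edgeR's test of the interaction. DESeq2 called 5 of the same genes, namely Il17a, C1qa, Hopx, Il1b and Penk. Il17a and Id3 were the 2 with the more positive change. Il17a in the other gated T cells stood at 826, 125, 779 and 1618 CPM, so it was present in control cells there. Id3, an inhibitor of E proteins, had 1, 8, 19 and 38 UMIs in members, at 8.08, 19.5, 42.5 and 88.7 CPM, while the others stood at 82.6, 52.6, 31.4 and 26.7 CPM. Within members, Id3 was higher in both stress libraries, and in the others lower in both.

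Among the genes with the more negative change in members, C1qa, C1qb, Il1b and Ms4a7 are genes of myeloid cells. C1qa stood at 299, 255, 15.7 and 177 CPM in members from 2, 4, 4 and 6 cells, and Il1b at 1801, 280, 448 and 766 CPM from 4, 5, 10 and 13 cells. Other genes in this group included Ctla4, Penk, Hopx, Cxcr6 and Cd44. Within members, the stress change was 0.21 ± 0.47 for Ctla4 and 0.11 ± 0.63 for Cxcr6, and neither passed. In the others, Ctla4 stood at 606, 171, 864 and 1066 CPM and Cxcr6 at 152, 42.0, 290 and 354 CPM. Both genes were thus higher there in both stress libraries. Penk, which encodes an opioid precursor, stood at 153, 38.9, 17.9 and 4.67 CPM in members and at 36.9, 2.41, 41.7 and 17.0 CPM in the others. Hopx stood at 436, 134, 98.5 and 110 CPM against 106, 38.6, 115 and 126 CPM. Without control 1 none of the 14 named genes passed, with edgeR adjusted p from 0.0545 for C1qa to 0.44 for Cxcr6. Over 6 alternatives, Cd44 lost its call in 5 and Cxcr6, Lgals3, Vim, S100a4 and Ms4a7 in 4. The number of genes that passed was 2 without control 1, 40 without control 2, 37 without stress 1 and 10 without stress 2; each such fit has a group of 1 library, assumed to vary like the rest, so these counts do not measure stability.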

How the data were processed

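The authors deposited UMI counts per gene and barcode for 4 libraries, made with Cell Ranger against mm10 per the submitters' processing notes. These notes name Cell Ranger 5 and 5.0, while the software named in the file headers is version 3.1.0. Which version made the files is not settled. The deposited counts were not normalised further, and no source used here names the annotation release. Coordinates are from GENCODE vM21 (GRCm38).

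Members, gene lists and tests were chosen with earlier results of these data known. Counts were summed per library and cell group and tested with edgeR 4.0.16 (TMM, filterByExpr, robust quasi-likelihood) under R 4.3.3. DESeq2 1.42.0 was the alternative. Shares were compared by an exact permutation test over libraries. The scripts were tested on simulated data. Named genes were those with an adjusted p under 0.05 and at least 20 CPM, the 12 with the smallest p in each direction, without gate, receptor segment, immunoglobulin, mitochondrial and ribosomal genes; where none passed, the 5 with the smallest p. Genes of the fixed lists were named beside them. Doublets were scored by Scrublet (scanpy 1.11.5), whose automatic threshold did not work, so the expected share was marked (members 0, 7, 7 and 3). Python 3.11.15 was used. Per-library depth is in the text. 1 gene of the trafficking list is not reported here.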

Additional observations from a re-analysis of the deposited data

Results flagged for a closer look

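Of the 17 genes that passed, the 14 left by the naming rule are given here: their stress change in members differed from that in other gated T cells by edgeR's test of the interaction, with adjusted p under 0.05. The value given is the log2 change in members minus that in the others. It was higher in members for Il17a (8.79) and Id3 (3.004); for Il17a, with 0 UMIs in control members, this fitted value depends on the prior count and is no bound. It was lower for C1qa (-2.42), C1qb (-2.17), Il1b (-1.43) and Ms4a7 (-4.41), genes of myeloid cells. The same held for Hopx (-2.08), Penk (-4.03), Ctla4 (-1.09), S100a4 (-1.80), Lgals3 (-1.47), Vim (-1.02), Cxcr6 (-1.79) and Cd44 (-1.32). With DESeq2 only Il17a, C1qa, Hopx, Il1b and Penk of these passed, and without control 1 none of the 14 did by edgeR. Of 6 alternatives, Cd44 lost its call in 5, Cxcr6, Lgals3, Vim, S100a4 and Ms4a7 in 4, and Ctla4 and Id3 in 3. At least 5 myeloid UMIs were carried by 4, 4, 4 and 6 members, and the part of these barcodes in the myeloid genes was not tested.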

How the results depend on the processing

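The difference in share was 4.23 points with a Cd4 UMI required, 2.24 at a mitochondrial limit of 5%, 3.05 after thinning and 0.519 as a share of all kept barcodes. With 1 library left out it ranged from 5.27 to 9.41. Deviations of same-numbered libraries from their group means had a correlation of -0.144, and those of crossed libraries 0.144. With 2 libraries per group these are mirror values by construction, so whether replicate numbers pair the libraries cannot be told. The replicate block gave 3 genes in the stress comparison, Il17a among them (adjusted p = 0.0089); the difference in share is 7.34 points under it by construction, which shows no stability. Other stress counts were 4 with DESeq2 and without myeloid UMIs, 39 without a filter, 33 at 3 receptor UMIs, 3 with a Cd4 UMI, 6 without doublets and 54 with a crossed replicate block. No gene passed at the 5% mitochondrial limit, after thinning or with equal members (0 in each). With 1 library left out the count ranged from 7 to 155. Members against others gave 984 genes without a filter, 180 with a Cd4 UMI, 170 with that and no myeloid UMIs, 121 at the 5% limit, 205 after thinning and 176 without the library block, and 370 to 603 with 1 library left out. The Cxcr5 comparison gave 28 without a filter and 0 to 2 with 1 library left out. The interaction gave 5 with DESeq2 and 2 to 40 with 1 library left out. H2-Ab1 turned to -0.095 at 3 receptor UMIs, -1.92 after thinning and -0.16 without myeloid UMIs. In these alternatives the cause was not tested. The stricter gates also leave fewer cells and fewer genes to test. The alternatives on myeloid UMIs and the crossed block were chosen after seeing the data.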
